A study of Mus musculus with 12 samples.

Results

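The set examined here comprises 10 genes that are active in fetal liver and are known to be shut down in mouse liver after birth: Afp, Gpc3, H19, Igf2, Dlk1, Meg3, Peg3, Mest, Plagl1 and Cdkn1c. They were chosen by name, as genes of the fetal liver program and of genomic imprinting with roles in growth, and each was found in the value table through its Entrez gene number. All 10 were measured, among 23185 genes with a symbol and 25206 probe sets in all. The rule uses no measured value, although the genes were proposed with earlier results of these data known.

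Afp encodes alpha-fetoprotein, the main serum protein of the fetus, made by hepatoblasts and early hepatocytes and silenced soon after birth. Gpc3 encodes glypican 3, a heparan sulfate proteoglycan anchored to the surface of fetal hepatocytes, where it restrains growth. The other genes are imprinted, which means that a methylation mark set in the egg or the sperm leaves a single parental copy active. H19, Meg3 and Cdkn1c are read from the maternal copy, and Igf2, Dlk1, Peg3, Mest and Plagl1 from the paternal copy. In mouse these imprinted genes belong to a network that regulates growth before birth and fades in most organs in the weeks that follow.

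Livers of 12 mice, each killed 5 days after birth and run on an array of its own, made up 4 groups of 3. LKB1 KO mice were Cre positive with a liver-specific deletion of the kinase gene Lkb1 (official symbol Stk11), and their LKB1 WT controls were Cre negative. RbpJk KO mice were Cre positive with a liver-specific deletion of RbpJk (official symbol Rbpj), through which Notch receptors switch their targets, and their RbpJk WT controls were Cre negative. All mice are labelled male, strain and the promoter driving Cre are unstated in the sources used here, and no control carries Cre without a deletion, so the effects of Cre and of the deletion cannot be told apart. Each value is a log2 expression level of whole liver, in which fewer cells of a type and less RNA per cell cannot be told apart, and a change is the knockout mean minus the mean of its own controls with its SE. Nothing says that replicates are separate litters, so p-values measure the spread between these mice alone.

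Several facts of the arrays bear on all results below. Stk11 was lower in LKB1 KO than in LKB1 WT livers (log2 change -0.80 ± 0.15, adjusted p = 0.0224, limma), and Rbpj was lower in RbpJk KO livers without passing the test (-0.73 ± 0.19, adjusted p = 0.0724). Xist, the RNA that coats the inactive X chromosome, was between 10.63 and 10.75 on the log2 scale on all 3 LKB1 WT arrays, LKB1 KO 3, RbpJk WT 1 and RbpJk WT 3, and at most 5.09 on the other 6 arrays, which goes against the label of male for those high in it. The hepatocyte markers averaged at least 11.53 on every array, so the tissue label held. RbpJk WT 1 stood apart through the pancreatic gene Ctrb1 (10.44, against at most 6.75 on any other array) and RbpJk KO 2 through the muscle and stellate cell gene Des (7.89, against at most 6.71). All 10 genes were above the range of genes silent in liver, since the dimmest of them averaged 6.30 and the 95th percentile of the mean levels of 1350 olfactory and vomeronasal receptor genes was 4.45. Afp, H19 and Igf2 lay near the upper end of the scale, where the brightest value on any array was 12.97, and whether their probes were saturated was not tested.

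The start-site regions of 8 of the 10 genes could be read from RefSeq (build GRCm38.p6), each from 250 bases before to 50 bases after the annotated start, in 14 windows. The windows of Afp, Gpc3 and Meg3 are printed because they show how unlike the start sites of these genes are, Gpc3 and Meg3 being genes called lower for the mean of both knockout effects, as given below. Capitals mark CpG dinucleotides, the sites of DNA methylation, and the strand is that of the gene. Afp lies at chr5:90490464-90490763 (plus strand), Gpc3 at chrX:52613925-52614224 (minus strand) and the first window of Meg3 at chr12:109540746-109541045 (plus strand).
Gpc3: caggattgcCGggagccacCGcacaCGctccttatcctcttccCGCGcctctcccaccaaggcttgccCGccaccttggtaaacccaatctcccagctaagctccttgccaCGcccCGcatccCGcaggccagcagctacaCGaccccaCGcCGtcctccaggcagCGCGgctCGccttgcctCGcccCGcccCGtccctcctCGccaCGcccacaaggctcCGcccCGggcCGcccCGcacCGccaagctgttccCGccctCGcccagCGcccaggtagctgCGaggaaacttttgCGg
Meg3: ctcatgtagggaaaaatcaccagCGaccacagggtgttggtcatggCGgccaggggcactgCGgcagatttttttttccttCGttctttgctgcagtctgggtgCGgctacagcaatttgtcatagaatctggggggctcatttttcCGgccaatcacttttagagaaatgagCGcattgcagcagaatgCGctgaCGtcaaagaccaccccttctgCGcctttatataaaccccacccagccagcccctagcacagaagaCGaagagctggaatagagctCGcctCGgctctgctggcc
Afp: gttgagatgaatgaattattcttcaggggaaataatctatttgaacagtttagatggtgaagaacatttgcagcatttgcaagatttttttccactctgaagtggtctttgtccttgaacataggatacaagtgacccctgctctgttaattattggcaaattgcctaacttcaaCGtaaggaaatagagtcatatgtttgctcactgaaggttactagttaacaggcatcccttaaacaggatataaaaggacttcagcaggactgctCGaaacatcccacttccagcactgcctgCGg
Gpc3 has 30 CpG dinucleotides in its window, Meg3 has 13 and Afp has 3, against a median of 7 over all 32841 mouse windows. The ratio of observed to expected CpG was 0.919 in Gpc3, 0.602 in Meg3 and 0.25 in Afp, and 35.79% of all windows were above 0.6. The TATA box TATAAA, searched on both strands, was present in Afp and Meg3, and in 13.62% of all windows. GTTAA, a half-site of the liver factor HNF1, matched 2 times on the forward strand of the Afp window and 1 time on the reverse strand, where the match overlaps a forward match, and 24.18% of all windows hold it. TGACG, the half-site of CREB, which is a factor linked to LKB1 signalling in liver, matched 1 time on each strand of the Meg3 window in a single overlapping site, and 20.82% of all windows hold it. TGGGAA, the core bound by RBPJ, was in none of the 3 printed windows and in 25.56% of all windows. A second Meg3 start, at chr12:109545148-109545447, holds it 1 time on each strand. These matches are descriptions of letters and were not linked to the changes below.

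Gpc3 passed the test in LKB1 KO livers, and Gpc3, Meg3 and Cdkn1c passed it for the mean of both knockout effects, all lower. The 3 genes had lower means in each knockout, but none passed in RbpJk KO livers alone, nor Meg3 and Cdkn1c in LKB1 KO livers alone, and the other 7 genes did not pass in any comparison. In LKB1 KO livers 1 of the 10 genes was called, Gpc3, which was lower (0.962% of the 23185 genes were called in this comparison, and 0.543% were called lower). In RbpJk KO livers 0 of the 10 were called (1.68% of all genes). The mean of the 2 knockout effects, which draws on all 12 arrays, was called for 3 of the 10, Gpc3, Meg3 and Cdkn1c, all lower (2.33% of all genes were called and 0.988% called lower). For the difference between the knockout effects 0 of the 10 were called (0.181% of all genes), and between the LKB1 WT and RbpJk WT controls likewise 0 of the 10 (0.699%).

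**Figure D1:**
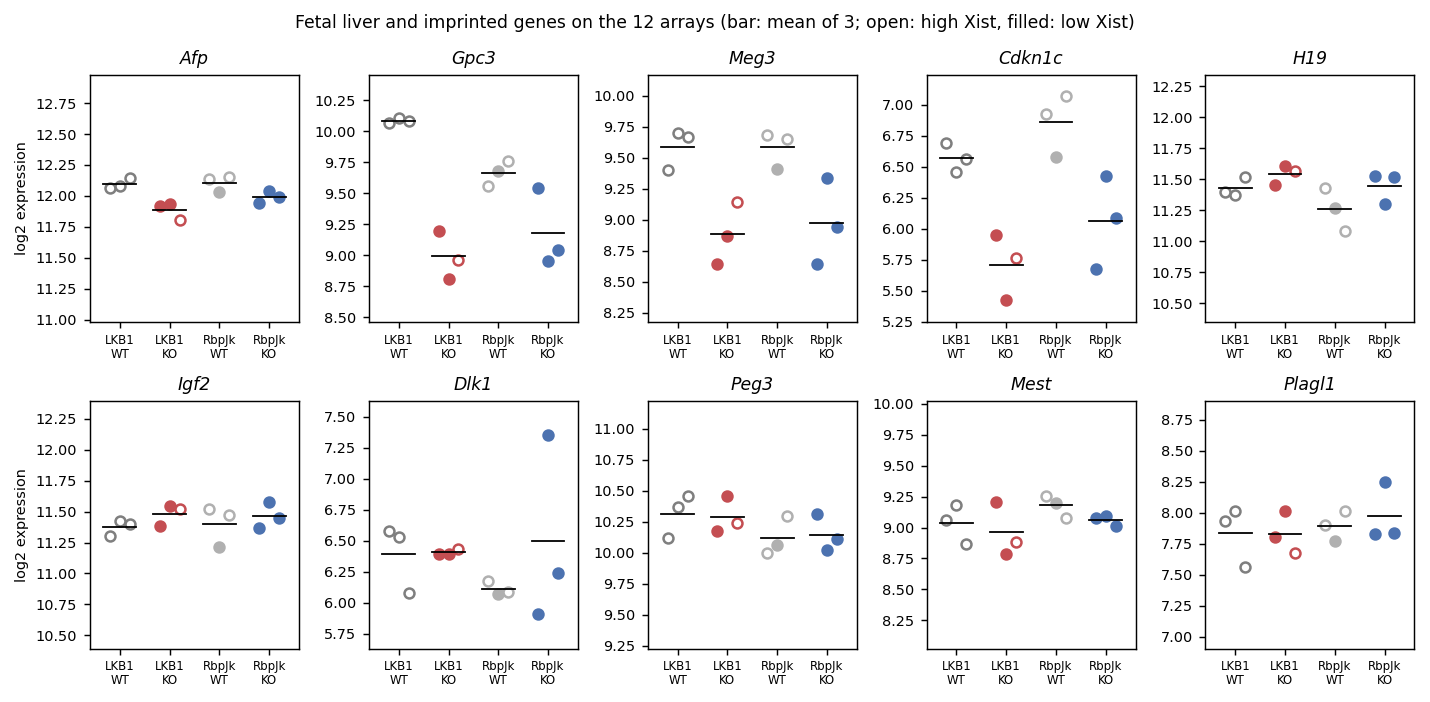
Log2 expression of the 10 genes (vertical axes, each spanning at least 2 log2 units) on the 12 arrays by group (horizontal axes). Points are arrays, bars are means of 3, open points have high Xist and filled points low Xist. For Gpc3, Meg3 and Cdkn1c the KO arrays lie below the WT arrays of both arms. For H19 and the paternally expressed genes KO and WT arrays overlap in both arms, and for Afp they overlap in the RbpJk arm.

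The ranges of the arrays were also counted without a model. In the LKB1 arm all 3 knockout arrays lay below all 3 controls for 4 of the 10 genes, Afp, Gpc3, Meg3 and Cdkn1c, as they did for 8.6% of all genes. In the RbpJk arm this held for 3 of the 10, Gpc3, Meg3 and Cdkn1c, and for 8% of all genes. In both arms it held for those 3 genes and for 1.25% of all genes. For the same 3 genes all 6 knockout arrays lay below all 6 control arrays, as in 0.69% of all genes. For 0 of the 10 did the knockout arrays lie above the controls in either arm, which 14.5% of all genes did.

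**Figure D2:**
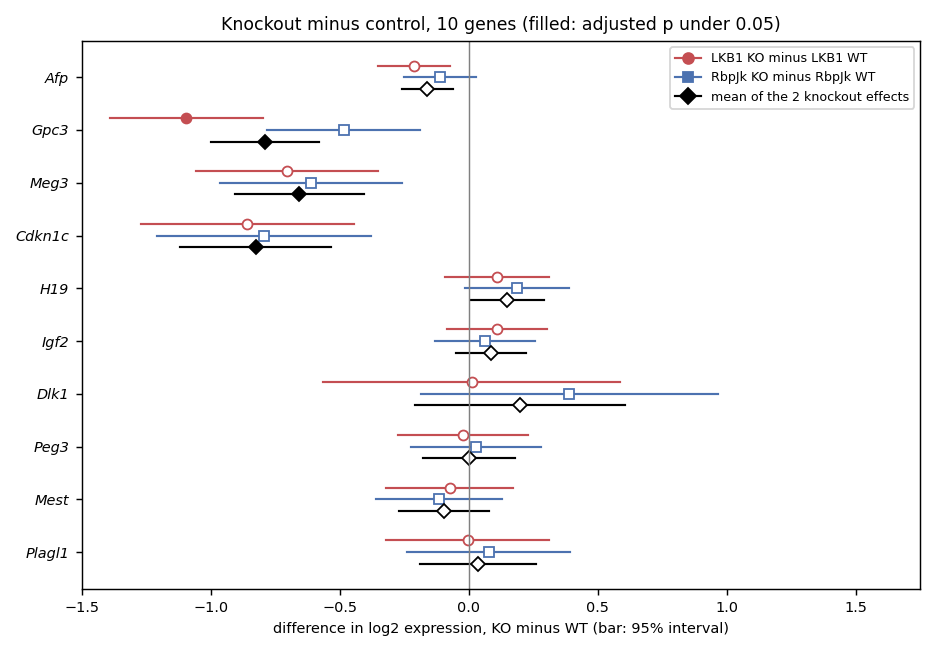
Knockout minus control difference in log2 expression (horizontal axis) for each gene (vertical axis) in the LKB1 arm, the RbpJk arm and as the mean of both, with 95% intervals. Filled symbols have an adjusted p under 0.05 by limma: Gpc3 in the LKB1 arm, and Gpc3, Meg3 and Cdkn1c for the mean.

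Gpc3, the cell-surface proteoglycan, had tight controls in the LKB1 arm and fell clear of them. The LKB1 WT livers were at 10.06, 10.11 and 10.08 on the log2 scale, and the LKB1 KO livers at 9.19, 8.81 and 8.96. Every LKB1 KO array was thus clear of the controls, with a change of -1.10 ± 0.14 (2.14-fold lower, adjusted p = 0.00114 by limma, n = 3 and 3). The RbpJk WT livers were at 9.56, 9.68 and 9.76, and the RbpJk KO livers at 9.54, 8.95 and 9.04. Here RbpJk KO 1 was next to the lowest control and the other KO arrays were well below it. The change was -0.49 ± 0.14 and did not pass the test (adjusted p = 0.107). Over 12 fits that each left out 1 array, it ran from -0.67 to -0.37 (adjusted p from 0.0112 to 0.283). It was called in 1 of them, the fit without RbpJk KO 1, the KO array nearest the controls. The mean of both effects was -0.79 ± 0.10 (adjusted p = 0.000418). The fall in LKB1 KO was greater than that in RbpJk KO by 0.61 on the log2 scale, a difference that was not called (adjusted p = 0.324). By mean level the groups ran from LKB1 WT (10.09 ± 0.02, SD) through RbpJk WT (9.67 ± 0.10) and RbpJk KO (9.18 ± 0.32) to LKB1 KO (8.99 ± 0.19), and of these neighbours the ranges of the KO groups alone overlapped. The gap between the control groups of 0.42 was not called (adjusted p = 0.224).

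Afp, the other gene of the set that is not imprinted, moved little. Its levels were 12.06, 12.08 and 12.15 in LKB1 WT and 11.92, 11.93 and 11.81 in LKB1 KO livers. All LKB1 KO arrays were below the controls, by a change of -0.21 ± 0.07 that did not pass the test (adjusted p = 0.225). RbpJk WT livers were at 12.13, 12.03 and 12.15 and RbpJk KO livers at 11.95, 12.04 and 11.99, with overlapping ranges and a change of -0.11 ± 0.07 (adjusted p = 0.456). The mean effect had a 95% interval from -0.26 to -0.06 and was not called (adjusted p = 0.101). With genes dimmer than a log2 level of 5 left out, so that fewer genes were tested, that mean effect passed (adjusted p = 0.0368). The 2 control groups were at almost equal levels, 12.10 ± 0.04 in LKB1 WT and 12.11 ± 0.07 in RbpJk WT.

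Meg3 is a long non-coding RNA read from the maternal copy of the Dlk1 and Meg3 domain on mouse chromosome 12, where it is the start of a series of non-coding RNAs and microRNAs. LKB1 WT livers were at 9.40, 9.70 and 9.66 and LKB1 KO livers at 8.64, 8.87 and 9.14. RbpJk WT livers were at 9.68, 9.41 and 9.65 and RbpJk KO livers at 8.64, 9.33 and 8.94. In both arms the knockouts were spread more widely than the controls and stayed below them, RbpJk KO 2 being the closest. Taken singly, the changes of -0.70 ± 0.16 in LKB1 KO (adjusted p = 0.0685) and -0.61 ± 0.16 in RbpJk KO (adjusted p = 0.0873) did not pass, and their mean of -0.66 ± 0.12 did (adjusted p = 0.00639). That call was lost with the Xist class as a covariate (-0.44, adjusted p = 0.270) and on arrays of 1 Xist class (adjusted p = 0.329). The controls of the arms were level, at 9.59 ± 0.16 and 9.58 ± 0.15. Without RbpJk KO 2, the change passed in the RbpJk arm (-0.79, adjusted p = 0.0227) and in the LKB1 arm (adjusted p = 0.0276). The LKB1 change itself stayed at -0.70 in that fit, since its arrays were the same and the estimate of spread shared by the groups differed. Of 12 fits that each left out 1 array, 1 called it in the RbpJk arm (adjusted p up to 0.238). In the LKB1 arm 2 did (adjusted p up to 0.277), each without an RbpJk array.

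The neighbours of Meg3 in the domain, looked at after the values of Meg3 were seen, did not pass the test. Rian, the next maternally expressed non-coding RNA, changed by -0.23 ± 0.22 in LKB1 KO and -0.51 ± 0.22 in RbpJk KO livers (adjusted p = 0.958 and 0.304). Mirg, further along, was at 0.01 ± 0.24 and 0.11 ± 0.24 (adjusted p = 0.878 in RbpJk KO). Rtl1, a paternally expressed gene of the domain, was at 0.30 ± 0.25 and 0.41 ± 0.25 (adjusted p = 0.928 and 0.488). Its group means, from 3.67 in LKB1 WT to 4.20 in RbpJk KO, were below the receptor bound of 4.45. Its level was thus not above the range of genes silent in liver. No test set Meg3 against these genes, and their SE are wider than that of Meg3.

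Cdkn1c encodes p57, an inhibitor of cyclin-dependent kinases that holds cells out of the cycle, and is read from the maternal copy. Its levels were 6.70, 6.46 and 6.56 in LKB1 WT and 5.95, 5.42 and 5.76 in LKB1 KO livers. In RbpJk WT livers they were 6.92, 6.58 and 7.07, and in RbpJk KO livers 5.68, 6.42 and 6.09. The ranges were apart in both arms, with RbpJk KO 2 nearest to its controls, as for Meg3. The changes of -0.86 ± 0.19 (adjusted p = 0.0533) and -0.79 ± 0.19 (adjusted p = 0.0553) each missed the threshold narrowly. Their mean of -0.83 ± 0.14 passed it (adjusted p = 0.00384), a call lost with the Xist class as a covariate (-0.66, adjusted p = 0.182) and on arrays of 1 Xist class (adjusted p = 0.180). The difference between the arms was -0.06, with a 95% interval from -0.65 to 0.52. Without RbpJk KO 2 the change was called in the RbpJk arm (-0.98, adjusted p = 0.0253) and in the LKB1 arm (adjusted p = 0.0317). The LKB1 change itself stayed at -0.86, as its arrays were the same and the shared estimate of spread differed. Of 12 fits that each left out 1 array, 1 called it in the RbpJk arm (adjusted p up to 0.163). In the LKB1 arm 3 did (adjusted p up to 0.254), each without an RbpJk array. Of 7 proliferation markers measured, 0 were called in either arm, 6 were above 0 in LKB1 KO (median 0.25) and 5 were below 0 in RbpJk KO (median -0.09). Per array their mean ran from 7.74 to 8.15 in LKB1 WT, 8.11 to 8.22 in LKB1 KO, 7.78 to 8.03 in RbpJk WT and 7.73 to 8.04 in RbpJk KO, and their part in the change of Cdkn1c was not tested.

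H19, the maternally expressed non-coding RNA that shares its enhancers and imprinting control region with Igf2, had knockout means above those of its controls. Its levels were 11.40, 11.38 and 11.52 in LKB1 WT and 11.46, 11.61 and 11.56 in LKB1 KO livers. RbpJk WT livers were at 11.43, 11.27 and 11.09 and RbpJk KO livers at 11.53, 11.30 and 11.52. The groups overlapped in both arms, and the knockout means were higher by 0.11 ± 0.09 (adjusted p = 0.929) and 0.19 ± 0.09 (adjusted p = 0.380). The mean effect was 0.15, with a 95% interval from 0.01 to 0.29 and an adjusted p of 0.361. Of the 3 maternally expressed genes, 2 were called for the mean effect, and of the 5 paternally expressed genes 0 (2.33% of all genes). Both calls, of Meg3 and Cdkn1c, were lost with the Xist class as a covariate (adjusted p = 0.270 and 0.182). Since the genes were named with earlier results of these data known, this split is a description.

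Igf2 encodes the fetal growth factor that signals through the IGF1 and insulin receptors. LKB1 WT livers were at 11.30, 11.43 and 11.40 and LKB1 KO livers at 11.38, 11.54 and 11.52, and RbpJk WT livers were at 11.52, 11.21 and 11.48 and RbpJk KO livers at 11.37, 11.58 and 11.45. All 4 groups overlapped their neighbours in level. The changes were 0.11 ± 0.09 (95% interval -0.08 to 0.30) and 0.06 ± 0.09 (-0.13 to 0.26), so that a change of the size of Gpc3, Meg3 or Cdkn1c lies outside both intervals.

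Dlk1, a membrane protein of the Notch ligand family that marks hepatoblasts and fetal mesenchyme, was set in the RbpJk arm by a single array. RbpJk KO livers were at 5.91, 7.35 and 6.24, and RbpJk WT livers at 6.18, 6.07 and 6.08. RbpJk KO 2, at 7.35, was above every other array, and it was also the array high in Des. With it the change was 0.39 ± 0.27 (adjusted p = 0.543) and without it -0.04 (adjusted p = 0.950). The stellate and mesenchymal markers, 14 of 14 measured, averaged between 6.78 and 7.31 over RbpJk KO arrays, with 7.31 on RbpJk KO 2, and between 6.79 and 7.04 over RbpJk WT arrays. Of these markers 9 were above 0 in RbpJk KO and 0 were called, and their part in the level of Dlk1 was not tested. In the LKB1 arm Dlk1 was at 6.58, 6.53 and 6.08 in controls and 6.39, 6.39 and 6.43 in knockouts, a change of 0.01 ± 0.27 with a 95% interval from -0.56 to 0.59.

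**Figure D3:**
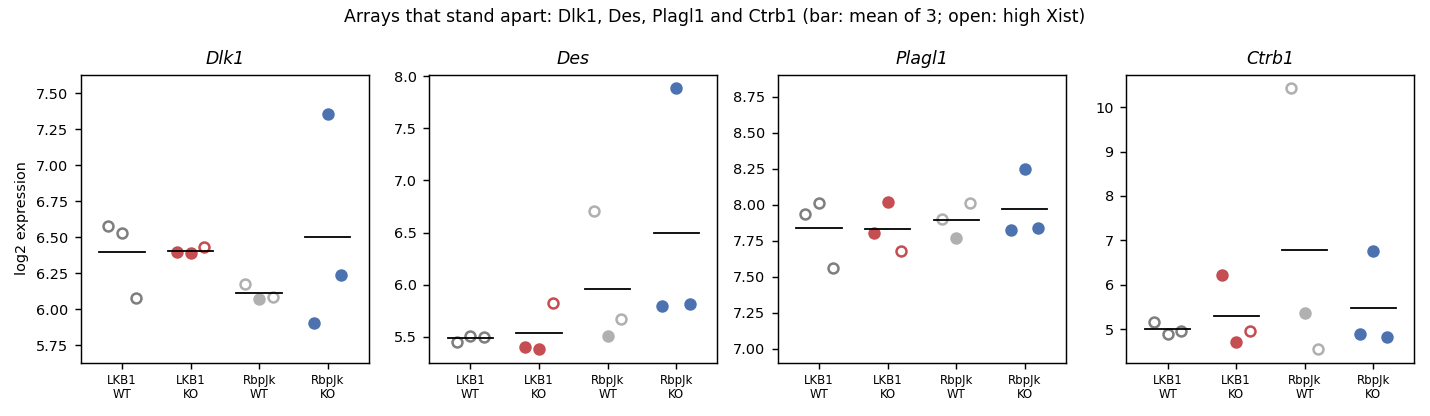
Log2 expression (vertical axes) of Dlk1, Des, Plagl1 and Ctrb1 on the 12 arrays by group (horizontal axes), with bars for means of 3 and open points for high Xist. RbpJk KO 2 is the highest array for Dlk1 (7.35), Des (7.89) and Plagl1 (8.24), and RbpJk WT 1 is the highest for Ctrb1 (10.44).

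Peg3, Mest and Plagl1 stayed within narrow ranges. Peg3, a zinc finger protein, ranged from 9.998 to 10.45 over the 12 arrays and changed by -0.02 ± 0.12 in LKB1 KO and 0.03 ± 0.12 in RbpJk KO livers (adjusted p = 0.945 in RbpJk KO). Mest, a protein of the hydrolase fold linked to fetal growth, ranged from 8.79 to 9.26 and changed by -0.08 ± 0.11 and -0.12 ± 0.11 (adjusted p = 0.692 in RbpJk KO). Plagl1, a zinc finger factor that in mouse acts on other imprinted genes, ranged from 7.56 to 8.24 and changed by -0.01 ± 0.15 and 0.08 ± 0.15 (adjusted p = 0.858 in RbpJk KO). Its highest value came from RbpJk KO 2, without which the RbpJk change was -0.06. In both arms the 95% intervals of these 3 genes lay between -0.36 and 0.39.

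The arrays high in Xist were unevenly spread over the groups, and this touched Meg3 and Cdkn1c more than Gpc3. With the Xist class as a covariate Gpc3 held its calls, at -1.11 in LKB1 KO (adjusted p = 0.0127) and -0.81 for the mean effect (adjusted p = 0.0179). Meg3 kept its direction with a smaller mean effect of -0.44 that was no longer called (adjusted p = 0.270), and so did Cdkn1c, at -0.66 (adjusted p = 0.182). Among arrays high in Xist, the LKB1 arm has 1 knockout and 3 controls. LKB1 KO 3 was at 8.96 for Gpc3 against controls of at least 10.06, at 9.14 for Meg3 against at least 9.40, and at 5.76 for Cdkn1c against at least 6.46. Among arrays low in Xist, the RbpJk arm has 3 knockouts and 1 control. RbpJk WT 2 was at 9.68 for Gpc3 against knockouts of at most 9.54, at 9.41 for Meg3 against at most 9.33, and at 6.58 for Cdkn1c against at most 6.42. That order within a class was given already by the ranges over all arrays and adds no support. In a fit to these 8 arrays, in which LKB1 KO and RbpJk WT have 1 array each that is assumed to vary like the other groups, the mean effect was called for Gpc3 (-0.81, adjusted p = 0.0379) and was not called for Meg3 (adjusted p = 0.329) or Cdkn1c (adjusted p = 0.180), and the LKB1 change of Gpc3 (-1.12) was not called (adjusted p = 0.0831). Gpc3 is the sole X-linked gene of the set.

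Markers of other liver cells moved in the LKB1 arm beside these genes. All 8 endothelial markers were below 0 in LKB1 KO (median -0.34, 0 called), with per-array means of 8.01 to 8.16 in LKB1 WT and 7.67 to 7.85 in LKB1 KO. The same held for 7 of 7 Kupffer cell and macrophage markers (median -0.39, 0 called), at 8.25 to 8.33 in LKB1 WT and 7.93 to 8.03 in LKB1 KO. In the RbpJk arm 7 of 8 endothelial markers were above 0 (median 0.07, 0 called). Of the stellate markers Reln was called in LKB1 KO (-0.55 ± 0.11, adjusted p = 0.0297), a call lost under 9 of 25 alternatives. Hepatocyte markers averaged 11.57 to 11.61 in LKB1 WT and 11.53 to 11.54 in LKB1 KO. In RbpJk KO livers the macrophage gene Adgre1 fell (-0.44 ± 0.10, adjusted p = 0.0496, lost under 19 of 25 alternatives) and Cd68 rose (0.57 ± 0.12, adjusted p = 0.0224, lost under 10), the B cell precursor gene Igll1 fell (-1.46 ± 0.15, adjusted p = 0.000139; 1 of 3 measured markers), and the erythroid factor Klf1 fell (-0.66 ± 0.14, adjusted p = 0.0274, lost under 11; 1 of 4 measured markers). For the mean effect, for which Meg3 and Cdkn1c were called, the stellate genes Lrat (-0.44 ± 0.09, adjusted p = 0.0136) and Reln (-0.43 ± 0.08, adjusted p = 0.00778), Adgre1 (-0.43 ± 0.07, adjusted p = 0.00498) and Igll1 (-0.92 ± 0.10, adjusted p = 0.000174) were called lower too. The calls of Lrat, Reln and Adgre1 were each lost under 2 of 22 alternatives. Of the 14 stellate and mesenchymal markers, 9 were above 0 and 5 below 0 for the mean effect (median 0.03). Of the 5 measured markers each of bile duct cells and of pancreas, 0 were called in either arm. In the RbpJk arm their median changes were -0.85 and -1.02. Their mean levels on RbpJk WT 1 were 6.23 and 7.22, against at most 4.73 and 4.47 on any other array. The part of these cells in the changes was not tested. Without RbpJk WT 1 and RbpJk KO 2, the arrays that stood apart, the mean effects of Gpc3 (-0.76, adjusted p = 0.00168), Meg3 (-0.72, adjusted p = 0.00398) and Cdkn1c (-0.90, adjusted p = 0.00438) were still called.

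Beyond the set, 43 of 45 further imprinted genes were measured. In LKB1 KO livers 0 rose and 2 fell (0.962% of all genes were called), and in RbpJk KO livers 0 rose and 2 fell (1.68%). The list medians were -0.01 and 0.01, against -0.01 and -0.03 over all genes. Grb10, an adaptor that dampens insulin and IGF receptor signalling and is read from the maternal copy in liver, was at 9.94, 9.95 and 9.91 in LKB1 WT and 9.08, 8.91 and 8.66 in LKB1 KO livers. In RbpJk WT livers it was at 9.77, 9.42 and 9.86 and in RbpJk KO livers at 9.12, 9.11 and 8.98. Its knockout arrays were below the controls throughout, as for Gpc3, Meg3 and Cdkn1c. It fell by 1.05 ± 0.12 on the log2 scale in LKB1 KO (adjusted p = 0.000699) and by 0.61 ± 0.12 in RbpJk KO (adjusted p = 0.0213), and the latter call was lost under 10 of 25 alternatives. Peg10, a paternally expressed retrotransposon-derived gene, fell in LKB1 KO livers (-0.57 ± 0.12, adjusted p = 0.0437) and was at 0.17 ± 0.12 in RbpJk KO livers (adjusted p = 0.559), while the difference was not called (adjusted p = 0.124). Kcnq1ot1, the paternally expressed non-coding RNA that silences Cdkn1c on the paternal copy, fell in RbpJk KO livers (-0.53 ± 0.12, adjusted p = 0.0472) and was at -0.21 ± 0.12 in LKB1 KO livers. These last calls were lost under 18 and 17 of the 25 alternatives.

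**Figure D4:**
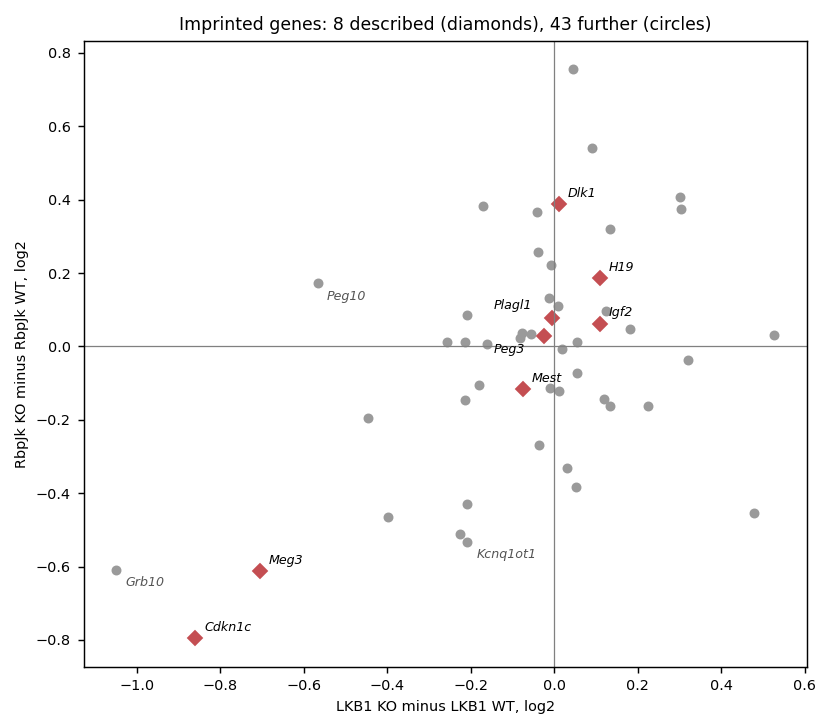
Log2 change in LKB1 KO (horizontal axis) and RbpJk KO livers (vertical axis) of the 8 imprinted genes described here (diamonds) and of 43 further imprinted genes (circles). Meg3, Cdkn1c and Grb10 lie at the lower left, and most of the others lie near 0.

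The 12 partners of IGF signalling, which carry IGF1 and IGF2 in blood or bind them on cells, were all measured. In LKB1 KO livers 0 of 12 were called (0.962% of all genes), and in RbpJk KO livers 1 rose and 1 fell (1.68% of all genes were called). Igfals, the liver-made subunit that keeps IGF in a long-lived complex in blood, fell in RbpJk KO livers (-1.62 ± 0.22, adjusted p = 0.00125) and was at -0.89 ± 0.22 in LKB1 KO livers (adjusted p = 0.0805). Igfbp2, a binding protein high in fetal liver, rose by 0.36 ± 0.09 in RbpJk KO (adjusted p = 0.0496), a call lost under 17 of 25 alternatives. For the mean effect 2 of the 12 fell and 0 rose (2.33% of all genes were called). Igfals was lower (-1.26 ± 0.15, adjusted p = 0.000363). Igfbp3, another carrier, fell by 0.54 ± 0.13 (adjusted p = 0.0448), a call lost under 12 of 22 alternatives. Igf2r, which clears IGF2 and is read from the maternal copy, was at -0.21 ± 0.15 and 0.09 ± 0.15.

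Of 17 regulators that repress or replace fetal genes in liver after birth, 14 were measured. Over all genes, 0.962% were called in LKB1 KO and 1.68% in RbpJk KO livers. In LKB1 KO livers Nr1i3, the xenobiotic receptor CAR, fell by 1.25 ± 0.14 on the log2 scale (adjusted p = 0.000343), and 0 rose. In RbpJk KO livers Hnf4a, the master factor of hepatocytes, rose by 0.64 ± 0.10 (adjusted p = 0.00475), and 0 fell. For the mean effect Cebpb was called as well (0.42 ± 0.10, adjusted p = 0.0400), a factor of the acute phase and of metabolism, and this call was lost under 13 of 22 alternatives. Zhx2, known in mouse as a repressor of Afp, H19 and Gpc3 after birth and named here outside the naming rule, was at 0.35 ± 0.11 in LKB1 KO (adjusted p = 0.268) and 0.30 ± 0.11 in RbpJk KO livers (adjusted p = 0.235), with 0.33 ± 0.08 for the mean effect (adjusted p = 0.0512). All LKB1 KO arrays, at 6.98, 6.98 and 6.97, were above the LKB1 WT arrays at 6.48, 6.66 and 6.73. All RbpJk KO arrays, at 6.77, 6.63 and 6.94, were above the RbpJk WT arrays at 6.42, 6.54 and 6.49. Knockout arrays lay above the controls in at least 1 arm for 14.5% of all genes. H19, unlike Gpc3 and Afp, had higher knockout means (0.11 and 0.19). The part of Zhx2 in these levels was not tested. Zbtb20, which represses Afp in mouse liver and was likewise named outside the rule, was at -0.10 ± 0.22 and 0.58 ± 0.22 (adjusted p = 0.242 in RbpJk KO).

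Other genes high in fetal liver were split in direction. Of 22 measured, 1 rose and 1 fell in each knockout, and the list medians were 0.00 and -0.06. The shares called over all genes were 0.962% in LKB1 KO and 1.68% in RbpJk KO livers. Scd2, the fatty acid desaturase of the fetal liver, was at 6.60, 6.94 and 6.71 in LKB1 WT and 7.56, 7.93 and 7.99 in LKB1 KO livers, and at 6.80, 6.67 and 6.87 in RbpJk WT and 8.58, 8.69 and 8.61 in RbpJk KO livers. It rose by 1.08 ± 0.13 (adjusted p = 0.000699) and 1.85 ± 0.13 (adjusted p = 2.05e-05), the opposite direction to Gpc3. Cyp3a16, a cytochrome P450 of fetal and newborn mouse liver, fell by 1.30 ± 0.21 in LKB1 KO (adjusted p = 0.00700) and by 0.98 ± 0.21 in RbpJk KO (adjusted p = 0.0323), both calls being lost with the Xist class as a covariate (adjusted p = 0.0696 and 0.169). Bex1 (0.65 ± 0.13, adjusted p = 0.0123) and Igdcc4 (0.44 ± 0.10, adjusted p = 0.0329) were called higher for the mean effect alone, the call of Igdcc4 being lost under 12 of 22 alternatives.

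Genes that rise in liver after birth were called lower or not at all. Of 18 measured, 0 rose and 3 fell in LKB1 KO livers (0.962% of all genes were called), namely the cytochrome Cyp2e1 (-0.81 ± 0.08, adjusted p = 0.000162), the tryptophan dioxygenase Tdo2 (-1.37 ± 0.16, adjusted p = 0.000699) and glutamine synthetase, Glul (-0.71 ± 0.12, adjusted p = 0.0120, lost under 7 of 25 alternatives). In RbpJk KO livers 0 rose and 3 fell (1.68% of all genes were called), Tdo2 (-1.75 ± 0.16, adjusted p = 0.000109), the glucuronosyltransferase Ugt2b1 (-0.94 ± 0.15, adjusted p = 0.00370) and Cyp7a1, which catalyses the first step from cholesterol to bile acids (-1.29 ± 0.26, adjusted p = 0.0216, lost under 9 of 25 alternatives). In LKB1 KO livers Cyp7a1 was at 0.68 ± 0.26 (adjusted p = 0.444). The list medians were -0.06 and -0.23. Of 13 genes that set, keep or remove imprint marks, among them the DNA methyltransferases and the TET enzymes, 0 were called in either arm. The changes of greatest size were those of Dnmt3l (-0.20 in LKB1 KO and -0.46 in RbpJk KO) and Dnmt3b (-0.20 and -0.27). Both are DNA methyltransferase family members of the germ line and embryo.

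Across the 12 arrays, the genes whose log2 levels followed a member most closely were sought among 10250 genes with an SD of at least 0.2. For Gpc3 these were Agxt, the peroxisomal alanine glyoxylate aminotransferase (Pearson r = 0.94), Pcp4l1 (0.93) and Cyp2c69, a cytochrome P450 (0.93). For Afp they were Slco1b2, a hepatocyte uptake transporter (0.94), Hnf4aos, transcribed opposite to Hnf4a (0.93), and Phf11b (0.93). For H19 they were Fcf1 (0.93), Ciz1 (0.92) and Ptbp1 (0.90), and for Igf2 Tardbp (0.90), Pisd-ps1 (0.89) and Ect2 (0.87). Ptbp1 and Tardbp are RNA-binding proteins. The points share genotype groups and Xist classes, and each trio is the extreme of many candidates, so these values describe the arrays only.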

How the data were processed

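Total RNA from 12 livers was hybridised to Affymetrix whole-transcript arrays, per the labels. Each probe set has 1 value in log2 units of expression, as deposited by the authors (range 1.19 to 12.97, array medians 4.84 to 5.01). Partek appears in the submitters' processing notes, with no version. The study's methods name Expression Console and BRB-ArrayTools without saying whether these arrays are covered, and background correction, summarisation and normalization go unstated there: they are not given in these sources. An unknown normalization could shift all changes of an array alike, and background compresses those of dim genes.

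Of 25206 probe sets, 2021 have no symbol and were left out, and 23185 with 1 symbol matched RefSeq genes by Entrez number. Groups came from the labels, and replicates were numbered in order of entry. A group-means model over 12 arrays (8 degrees of freedom, with 5.88 more from the prior) was fitted in limma 3.58.1 (R 4.3.3), with an intensity trend, contrasts for each knockout, the difference and mean of both effects and the controls, and Benjamini-Hochberg adjustment over 23185 genes. Calls have an adjusted p under 0.05, and 95% intervals are those of limma. The fit was tested on simulated data. With 3 arrays per group, their number limits the precision. Xist classes were split at a log2 level of 8.

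The members and gene lists were chosen with earlier results of these data known. Named were the members, the targeted genes, Xist and Ctrb1, up to 3 called genes a list and direction with the smallest p (or 2 as values), and the 3 genes most like Afp, H19, Igf2 and Gpc3. Unnamed gene models, small RNAs and olfactory receptors were not named. Alternatives were other spread models, array weights, a dim filter, other normalizations, all probe sets, the methods' t-test, each array left out, and Xist class. Leaving out RbpJk WT 1 and RbpJk KO 2 together was added after the data were seen.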

Additional observations from a re-analysis of the deposited data

How the results depend on the processing

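Over 25 alternatives, 0 of 1170 values of the 10 genes reversed a call, 1114 kept their direction or size and side of the threshold, 31 gained a call, 6 lost a call and 19 moved by more than the spread between replicates. The mean effect was called for 3 genes in each fit that left out an array. It was called for 1, Gpc3, with the Xist class as a covariate or on arrays of 1 Xist class.

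In the LKB1 arm, 3 of the 10 genes were called (Gpc3, Meg3 and Cdkn1c) with the 6 arrays alone, quantile normalization, array weights, dim genes filtered out, or without RbpJk WT 1 and RbpJk KO 2, 2 with a robust trend or median centring, and 0 on arrays of 1 Xist class. In the RbpJk arm, 1 was called with a robust trend or the dim filter and 2 with quantile normalization. In the main fit 0.962% of all genes were called in the LKB1 arm and 1.68% in the RbpJk arm. Counts over all genes moved with some settings too, as with array weights (512 in the LKB1 arm, against 223). These counts of members are thus not read as results about the members. With each array left out, from 1 to 3 were called in the LKB1 arm and from 0 to 2 in the RbpJk arm, and the counts over all genes ran from 106 to 235 and from 194 to 465.

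Over all genes, 223 were called in LKB1 KO and 390 in RbpJk KO livers. The LKB1 count was 131 without the trend, 512 with array weights, 132 with the Xist covariate and 56 on arrays of 1 Xist class. The RbpJk count was 157 with the 6 arrays alone, 259 with array weights, 602 with median centring, 187 with the covariate and 170 on arrays of 1 class. Median centring moved the RbpJk change of Afp from -0.11 to -0.05. The methods' t-test called 0 genes in either arm after Benjamini-Hochberg adjustment (Gpc3 in LKB1 KO, adjusted p = 0.168), and at an unadjusted p under 0.05 it called 2253 and 2071 genes, with 4 of the 10 in the LKB1 arm, 2 in the RbpJk arm and 1 between the controls. Except where fewer genes or arrays were used by construction, the cause was not tested.

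The mean effect and the difference of effects have no value with 1 arm alone or under the t-test. No paired analysis was possible because the labels give no replicate numbers or litters. With 3 arrays a group, the SE of a change ran from 0.07 (Afp) to 0.27 (Dlk1) on the log2 scale, which limits what small changes can be detected.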
